A study of Mus musculus with 2 samples.

Results

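Glycolysis breaks glucose down to pyruvate in the cytosol, and lactate dehydrogenase then turns pyruvate into lactate, which leaves the cell through monocarboxylate carriers. In the hair follicle, the growing epithelium is known for its use of glucose and its release of lactate, and lactate dehydrogenase has been linked to the activation of follicle stem cells. Here, 10 genes of this route were followed through 2 single-cell libraries of mouse dorsal skin. They are Slc2a1 (GLUT1, the glucose carrier of many epithelia), Hk1 and Hk2 (hexokinases, which trap glucose as its phosphate), Pfkp (the platelet-type phosphofructokinase, at the committed step), Aldoa (aldolase A), Pgk1 (phosphoglycerate kinase, which makes ATP), Eno1 (enolase 1), Pkm (muscle-type pyruvate kinase, which makes ATP and pyruvate), Ldha (lactate dehydrogenase A) and Slc16a1 (MCT1, a carrier of lactate and pyruvate). The 10 genes were chosen by symbol among 32285 annotated genes, and the symbol Aldoa stands on 2 rows, so that 11 rows matched. On GRCm38.p6 the genes lie apart, on 8 chromosomes. Ldha (chr7:46842274-46855627) and Aldoa (chr7:126795234-126800994) share chromosome 7, and Slc2a1 (chr4:119108745-119137330) and Eno1 (chr4:150236708-150248879) chromosome 4. Hk1 lies at chr10:62268855-62379920, Hk2 at chr6:82725025-82774454, Pfkp at chr13:6579874-6649060, Pgk1 at chrX:106187100-106203699, Pkm at chr9:59656576-59679372 and Slc16a1 at chr3:104638664-104658462.

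Both groups were male C3H/HeN mice, 7 weeks old when the back was shaved and 9 weeks old at collection. Controls received vehicle, and the androgenetic alopecia (AGA) model received testosterone propionate (TP) at 0.5 mg per day under the skin. Skin of 15 mice was pooled in each group before dissociation, so each group is 1 library, and neither a test nor a spread between animals can be had. The skin was digested with collagenase D and passed over Percoll, and the numbers of cells recovered depend on these steps as well as on the tissue. The group that also received a CXCL12 antibody is not analysed here.

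The 3′ assay counts molecules by unique molecular identifiers (UMIs). The control library held 39076 cells with 106718212 UMIs after filtering and the TP library 18542 cells with 134956457 UMIs, with medians of 2049 and 4897.5 UMIs per cell, and 303 barcodes occurred in both libraries. Levels are the UMIs of a gene per 1000000 UMIs of the same cells (CPM), given with 95% exact Poisson intervals. Ratios are TP over control with exact conditional binomial intervals. These intervals cover counting error only. Of 30 clusters, 23 were named by markers and fell into 14 classes, and 13 classes had at least 100 cells in each library. The 7 unnamed clusters held 37.7% of control cells and 14.1% of TP cells. Genes of the dissociation stress list summed to 3006 CPM in control and 7417 CPM in TP, and their part in the ratios below was not tested.

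Stretches upstream of 6 of the 10 genes are printed. Slc2a1, Hk2 and Pfkp are shown because they were at least 1.5-fold higher in TP in some classes and at least 1.5-fold lower in others. Pgk1 and Ldha are shown for their levels in the papilla, and Slc16a1 for its ratio over all cells. Each is the 250 bases before a RefSeq transcript start on GRCm38.p6, read 5′ to 3′ along the gene. Capitals mark ACGTG on either strand, a form of the core of the element bound by hypoxia-inducible factors. Other forms of the core were not searched. CACGTG, the E-box bound by MYC and related factors, contains ACGTG on both strands.
Slc2a1, chr4:119108495-119108744, plus strand: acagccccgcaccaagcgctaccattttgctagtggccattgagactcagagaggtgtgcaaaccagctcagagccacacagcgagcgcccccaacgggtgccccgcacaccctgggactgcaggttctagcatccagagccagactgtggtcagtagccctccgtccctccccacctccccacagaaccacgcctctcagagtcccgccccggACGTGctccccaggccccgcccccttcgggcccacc
Hk2, chr6:82774455-82774704, minus strand: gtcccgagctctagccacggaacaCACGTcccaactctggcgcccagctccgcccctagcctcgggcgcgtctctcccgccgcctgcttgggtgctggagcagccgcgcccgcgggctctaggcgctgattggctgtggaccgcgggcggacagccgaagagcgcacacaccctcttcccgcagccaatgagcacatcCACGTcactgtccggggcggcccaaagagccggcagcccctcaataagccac
Pfkp, chr13:6648772-6649021, minus strand: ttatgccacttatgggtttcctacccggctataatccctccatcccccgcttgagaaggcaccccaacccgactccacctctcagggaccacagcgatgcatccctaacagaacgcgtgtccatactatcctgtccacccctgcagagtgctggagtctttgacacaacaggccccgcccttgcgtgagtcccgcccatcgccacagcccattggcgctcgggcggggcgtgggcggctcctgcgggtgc
Pgk1, chrX:106186850-106187099, plus strand: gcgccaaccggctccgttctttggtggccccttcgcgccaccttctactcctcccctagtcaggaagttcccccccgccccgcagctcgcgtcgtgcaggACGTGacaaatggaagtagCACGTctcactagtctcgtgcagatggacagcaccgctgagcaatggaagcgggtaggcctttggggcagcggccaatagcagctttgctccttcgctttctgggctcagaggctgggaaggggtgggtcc
Ldha, chr7:46845554-46845803, plus strand: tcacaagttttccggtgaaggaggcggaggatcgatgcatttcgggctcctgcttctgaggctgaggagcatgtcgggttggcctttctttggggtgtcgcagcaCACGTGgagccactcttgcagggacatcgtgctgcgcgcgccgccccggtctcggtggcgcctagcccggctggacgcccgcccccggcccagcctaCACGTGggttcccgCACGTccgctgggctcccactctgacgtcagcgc
Slc16a1, chr3:104638414-104638663, plus strand: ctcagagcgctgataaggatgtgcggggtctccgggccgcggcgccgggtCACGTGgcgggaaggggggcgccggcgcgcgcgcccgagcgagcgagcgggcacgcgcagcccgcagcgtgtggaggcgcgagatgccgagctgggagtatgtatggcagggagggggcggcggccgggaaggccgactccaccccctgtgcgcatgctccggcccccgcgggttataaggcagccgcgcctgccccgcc
The Slc2a1 window held 1 match 36 bases before the start and the Pfkp window none. The Hk2 window held 2 matches at 226 and 52 bases, and the Pgk1 window 2 matches at 150 and 131 bases. The Ldha window printed held 2 copies of CACGTG and a further single ACGTG, while the window before a second Ldha start, chr7:46846832-46847081, held no match, and the Slc16a1 window held 1 copy of CACGTG. Among all 32851 upstream windows of this length, 16.6% held ACGTG on either strand and 6.02% held CACGTG. Of 17 windows of the 10 genes, which include several starts per gene and overlap in part, 8 held ACGTG on either strand, and 7 of the 10 genes had it in at least 1 window. Hk1, Pfkp and Eno1 had it in none. The share of all genes with ACGTG in at least 1 window was not counted, and the share of windows cannot stand in for it. A match of letters is a description of the window and not evidence of binding.

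The levels of the 10 genes differed widely between classes. The highest class of Slc2a1, Hk1 and Pfkp differed from that of the genes from aldolase to lactate dehydrogenase in both libraries. Slc2a1 was highest in interfollicular epidermis (IFE) basal-like cells, at 145 CPM (136 to 154) in the control library and 125 CPM (119 to 131) in the TP library. It was lowest in hair cortex and cuticle-like cells of the control, at 6.98 CPM (4.60 to 10.2, 27 UMIs), and in myeloid-like cells of TP, at 5.03 CPM (1.85 to 10.9, 6 UMIs). Pfkp followed a similar order at its upper end, with 250 CPM (238 to 261) and 243 CPM (236 to 252) in IFE basal-like cells. Its control level was 143 CPM in IFE suprabasal-like cells and 12.3 CPM in companion layer and medulla-like cells, the lowest class. Hk1 was also led by IFE basal-like cells, at 79.5 CPM in control and 71.4 CPM in TP, and was lowest in hair matrix-like cells at 12.5 and 14 CPM. IFE basal-like cells therefore had the highest level of the carrier, the constitutive hexokinase and phosphofructokinase in both libraries. For Hk1 in control, myeloid-like and endothelial-like cells came next. Each of these held only 17 UMIs of Hk1 and Hk2 together, so the first place for Hk1 is uncertain.

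Hk2, the inducible hexokinase, had another order. It was highest in melanocyte-like cells, with 460 CPM (424 to 499) for control and 126 CPM (107 to 148) for TP, followed in both libraries by hair matrix-like cells at 74.4 and 70.0 CPM. IFE basal-like cells, which led for Hk1, held 37.6 and 32.1 CPM of Hk2. Across the 14 classes, Hk2 was the member least correlated with the mean of the other 9 on a log2(CPM + 10) scale, with Pearson r of 0.183 in control and 0.0248 in TP, against 0.952 and 0.913 for Aldoa, the highest. In control and TP, r was 0.832 and 0.582 for Slc2a1, 0.865 and 0.619 for Pfkp and 0.688 and 0.752 for Hk1. Ldha had 0.822 and 0.758. These correlations describe 14 classes that share a library and depth.

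The 5 genes from aldolase to lactate dehydrogenase were highest in melanocyte-like cells in both libraries. Aldoa reached 383 CPM (350 to 419) for control and 497 CPM (458 to 538) for TP, and Ldha 358 CPM (326 to 392) and 552 CPM (511 to 596). Pgk1 stood at 236 and 315 CPM, Pkm at 297 and 320 CPM, and Eno1 at 166 and 197 CPM. IFE basal-like cells came second for Pgk1, Eno1, Pkm, Ldha and Aldoa in both libraries, for instance with 297 and 330 CPM of Ldha. The spans between the highest and the lowest class, from 3.63-fold for Eno1 to 6.08-fold for Pgk1 in control, were smaller than for Slc2a1, Hk2 and Pfkp. Most neighbours in these orders cannot be told apart, since 9 to 12 of 13 neighbouring pairs had overlapping intervals in control, depending on the gene.

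**Figure D1:**
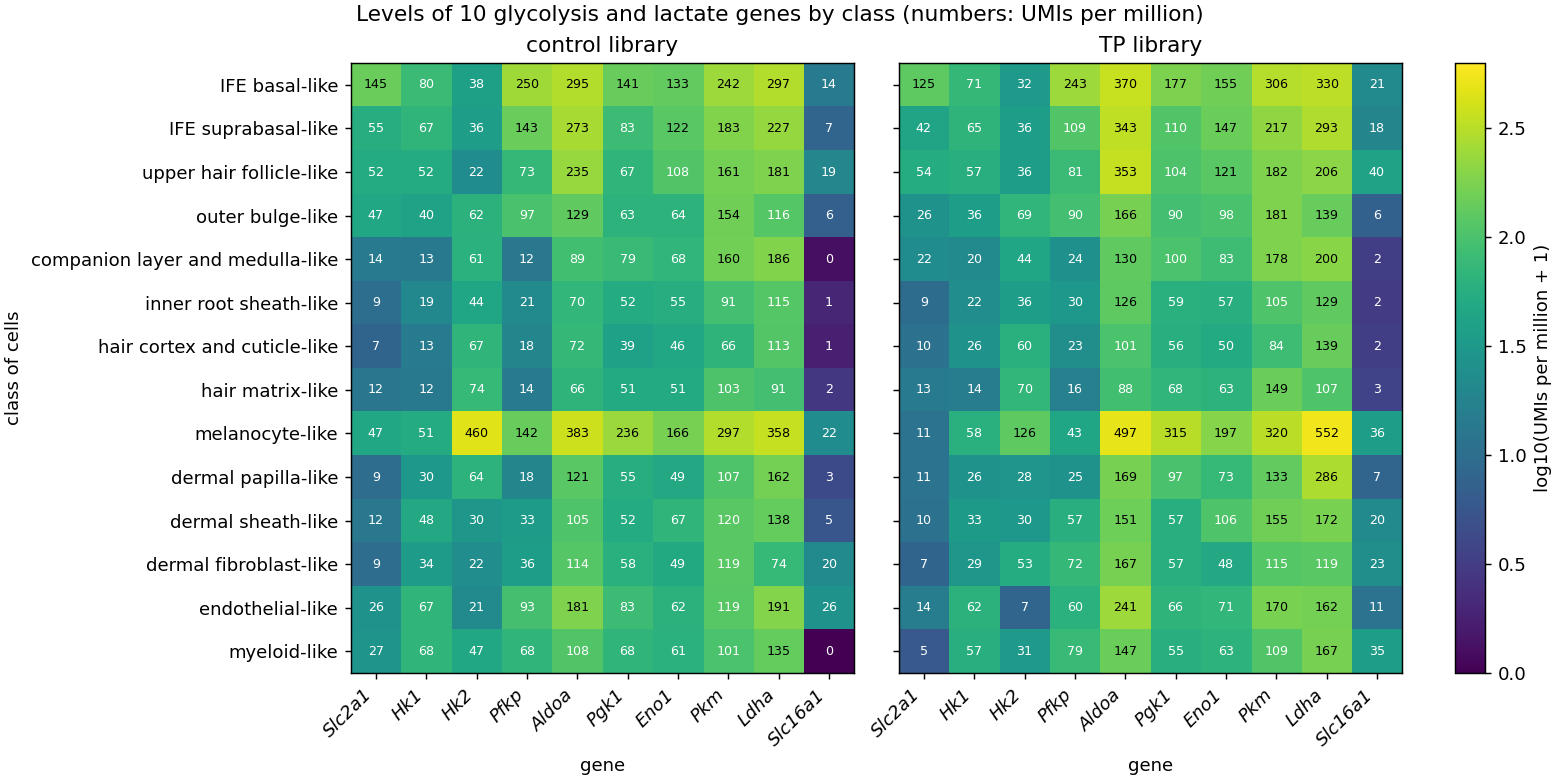
Levels of the 10 genes (columns) in 14 classes of cells (rows) in the control and the TP library; colour is log10(CPM + 1) and the printed number is the CPM. Slc2a1, Hk1 and Pfkp are highest in the interfollicular epidermis (IFE) basal-like row, and Hk2 in the melanocyte-like row, at 460 CPM in control and 126 CPM in TP.

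Slc16a1, the lactate carrier, had the fewest UMIs of the members and stood below 3 CPM in the hair matrix, inner root sheath, cortex and cuticle, and companion layer and medulla-like classes of both libraries. In control it was highest in endothelial-like cells at 25.8 CPM, which rests on 5 UMIs (interval 8.37 to 60.2), and in TP in upper hair follicle-like cells at 39.7 CPM (35.5 to 44.1). Inner root sheath-like cells held 1.02 and 2.07 CPM. In myeloid-like cells, 0 of 148051 control UMIs were Slc16a1, and 3 UMIs, the limit used for a count of 0, would be 20.3 CPM. The TP level there was 35.2 CPM (42 UMIs), 1.74-fold above that limit, and the counting interval of the ratio began at 1.35, but only 65 control cells were in that class.

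By a rule that ranked named genes outside all pathway lists, with at least 1000 UMIs in each library, on the lower of their r in both libraries, the 10 genes most like the mean of the members over the 14 classes were Hlf, Ipmk, Prdx1, Myo1e, Sox6, Car13, Met, Cyp2j6, Tmem51 and Atp1b3. Their lower r ranged from 0.817 for Hlf to 0.773 for Atp1b3.

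Over all cells, 9 of the 10 genes had a higher level in TP and Hk2 a lower one. Slc16a1 went from 4.12 to 15.0 CPM, a ratio of 3.64 (3.28 to 4.04). Aldoa went from 138 to 262 CPM (ratio 1.90, 1.86 to 1.94), Pfkp from 59.5 to 93.3 CPM (1.57, 1.52 to 1.62) and Eno1 from 75.9 to 115 CPM (1.52, 1.47 to 1.56). These 4 passed 1.5-fold higher and none of the 10 passed 1.5-fold lower, where 13.9% of the 17544 genes with at least 50 UMIs passed in the higher and 26% in the lower direction. With TMM factors, which rest on the bulk of genes, 3544 genes were higher and 2593 lower in place of 2442 and 4568. At 2-fold only Slc16a1 passed higher and none lower, beside 8.24% and 10.5% of all genes. The other 5 higher genes lay just under the limit. Pgk1 went from 73.0 to 109 CPM (1.49), Hk1 from 31.9 to 47.2 CPM (1.48), Ldha from 167 to 244 CPM (1.46), Pkm from 137 to 197 CPM (1.44) and Slc2a1 from 28.6 to 39.2 CPM (1.37). Hk2 went from 54.8 CPM (53.4 to 56.2) to 40.1 CPM (39.0 to 41.2), a ratio of 0.73 (0.71 to 0.76).

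The median log2 ratio of the 10 genes was 0.57, and that of all genes tested was -0.24. With these factors, every ratio is divided by 0.839, which moves all log2 ratios up by 0.254 and brings the median of all genes to 0.02. The median of the members then becomes 0.82 and the count past 1.5-fold higher becomes 9, all but Hk2, whose ratio was 0.87. The second Aldoa row held 135 and 52 UMIs. On the GRCm39 annotation in hand, its identifier is a longer gene that overlaps Aldoa on the same strand, so reads that fit both may have been left uncounted and the Aldoa level is uncertain. Eno1b, a near copy of Eno1, held 245 and 512 UMIs and could share reads with it. The Aldoa ratio was 4.41 in cluster 0 (99.6 to 439 CPM) and 2.95 in cluster 29 (242 to 716 CPM), both unnamed, where Acta1, the skeletal muscle actin, went from 3.63 to 398 CPM and from 66.6 to 775 CPM. Without cluster 0, left out after seeing the data, Aldoa had a ratio of 1.88 over all cells, and the part of muscle RNA in the remainder was not tested.

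The libraries differed in make-up. IFE suprabasal-like cells gave 16.9% of control UMIs and 39.3% of TP UMIs, IFE basal-like cells 6.73% and 10.9%, and inner root sheath-like cells 17.5% and 6.46%. UMI shares alone do not tell more cells of a type from more RNA per cell. By recovered cells, IFE suprabasal-like cells made up 9.274% of control and 25.64% of TP. The shares were 7.575% and 16.93% for IFE basal-like and 19.1% and 5.965% for inner root sheath-like cells. In the TP library, IFE suprabasal-like cells alone gave 51.4% of Aldoa and 53.7% of Hk1 UMIs, against 33.4% and 35.3% in control. To hold make-up fixed, each cluster was given the same share of UMIs in both libraries. With the control shares, the ratio of Slc2a1 was 0.91, of Hk1 1.02 and of Pfkp 1.02, and with the TP shares they were 0.83, 0.97 and 0.93. On this scale, the higher all-cell levels of these 3 were no longer present. The median log2 ratio of all genes tested was -0.0989 with control and -0.136 with TP shares, and TMM factors were not applied to the weighted ratios. Aldoa kept a ratio of 1.37 with control and 1.27 with TP shares, Pgk1 1.22 and 1.27, Ldha 1.20 and 1.20, Pkm 1.15 and 1.16, and Eno1 1.10 and 1.15. Slc16a1 kept 2.11 and 1.98 and was the only member past 1.5-fold under either weighting, where the share of all genes past that fold was not counted. Hk2 moved towards 1, to 0.85 and 0.90.

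**Figure D2:**
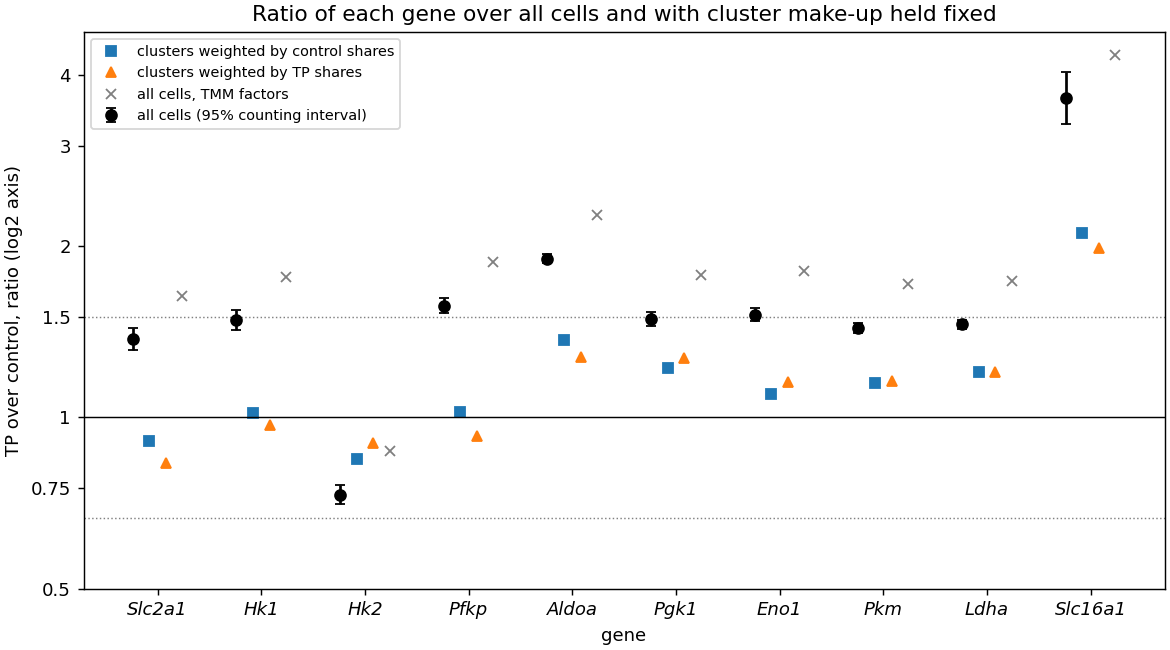
Ratio of TP over control (log2 axis) for each gene over all cells (black, with 95% counting intervals), with clusters weighted by control or by TP shares of UMIs, and over all cells with TMM factors. The black points of Slc2a1, Hk1 and Pfkp lie at 1.37, 1.48 and 1.57, and their weighted points between 0.83 and 1.02; dotted lines mark 1.5-fold.

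Within classes, the 10 genes gave 118 pairs of gene and class with at least 50 UMIs. In 23 pairs (19.5%) the level was at least 1.5-fold higher in TP and in 6 (5.08%) at least 1.5-fold lower, where 7.45% of all pairs of gene and class were higher and 15.9% lower. With TMM factors the counts were 36 higher and 5 lower, where 11.6% of all pairs were higher and 9.96% lower. The interval left out 1 in 28 of these 29. The exception was Pfkp in endothelial-like cells, with 18 and 34 UMIs.

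The genes before and after aldolase differed in how even they were over classes, a grouping made once the values had been seen. For Aldoa, Pgk1, Eno1, Pkm and Ldha, the ratio was above 1 in 60 of 65 pairs, the interval lay above 1 in 46 and below 1 in none, and the ratios ran from 0.80 to 1.79. Over all pairs of gene and class, the ratio was above 1 in 37.4%, and the interval, which narrows with the number of UMIs, lay above 1 in 14.8% and below 1 in 29.6%. The 5 pairs at or below 1 were Pgk1 and Ldha in endothelial-like cells and Pgk1, Eno1 and Pkm in dermal fibroblast-like cells. For Slc2a1, Hk1, Hk2 and Pfkp, the ratio was above 1 in 22 of 46 pairs, the interval lay above 1 in 10 and below 1 in 12, and the ratios ran from 0.23 to 2.34. Slc2a1, Hk2 and Pfkp, 3 of the 10 members, were at least 1.5-fold higher in some classes and lower in others with intervals that left out 1, as were 12.9% of all genes with at least 50 UMIs in 2 or more classes and 12.9% of those in 9 or more. With TMM factors the ratio was above 1 in 63 of the 65 later pairs, in 30 of the 46 entry pairs and in 53.4% of all pairs. Aldoa was higher in TP in 13 of 13 classes, with the interval above 1 in 12 of them.

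**Figure D3:**
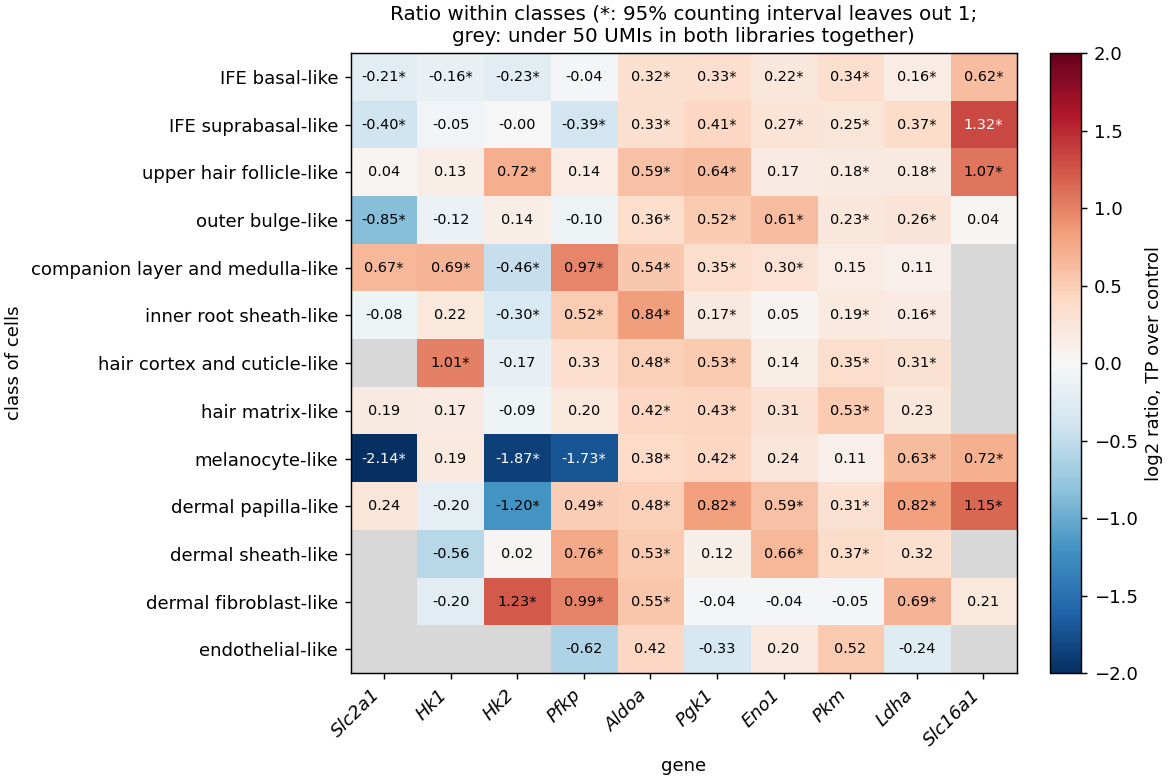
log2 ratio of TP over control for each gene (columns) within 13 classes (rows); red is higher in TP, blue lower, a star marks a 95% counting interval that leaves out a ratio of 1, and grey marks pairs with under 50 UMIs. The columns from Aldoa to Ldha are mostly pale red, while Hk2, Slc2a1 and Pfkp hold both red and blue cells.

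In the epidermis, no entry gene had a ratio above 1, while each later step did. In IFE basal-like cells, Slc2a1 had a ratio of 0.86 (0.80 to 0.93), Hk1 0.90 and Hk2 0.85, whereas Aldoa, Pgk1 and Pkm had 1.25, 1.26 and 1.26. In IFE suprabasal-like cells, Slc2a1 went from 55.1 to 41.8 CPM (0.76, 0.70 to 0.82) and Pfkp from 143 to 109 CPM (0.76, 0.73 to 0.80). These epidermal ratios of Slc2a1 and Pfkp depend on scaling. With TMM factors, Slc2a1 was 0.98 and 0.96 in the basal-like and suprabasal-like classes, Pfkp 1.11 and 0.97, Hk1 turned to 1.02 and 1.22, and Hk2 in the suprabasal-like class went from 1.00 to 1.26. Both genes were highest in IFE basal-like cells, and IFE basal markers in the suprabasal-like class summed to 4450 CPM in control and 3428 CPM in TP, outer bulge markers to 810 and 326 CPM and cycling genes to 372 and 102 CPM. The part of these lists was not tested. The lower suprabasal levels stood in 1 cluster, led by Hrnr, Flg and Flg2, which mark the granular layer. There Slc2a1 went from 42.2 to 23.6 CPM (0.56, 0.50 to 0.63) and Pfkp from 125 to 81.1 CPM (0.65, 0.61 to 0.70). In the cluster whose leading genes include Krt1 and Krt10, the ratios were 0.97 for Slc2a1 and 0.93 for Pfkp, and in the third suprabasal-like cluster 1.04 and 0.95.

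Ldha in IFE suprabasal-like cells went from 227 to 293 CPM (1.29, 1.25 to 1.33) and Pgk1 from 82.6 to 110 CPM (1.33, 1.26 to 1.41). Slc16a1 was the single member past 1.5-fold in both epidermal classes. It went from 13.7 to 21.0 CPM in IFE basal-like cells (1.54, 1.22 to 1.95) and from 7.17 to 17.9 CPM in IFE suprabasal-like cells (2.49, 2.07 to 3.02). In IFE basal-like cells, IFE suprabasal markers summed to 2939 CPM in control and 4997 CPM in TP, upper hair follicle markers to 264 and 452 CPM and inner root sheath markers to 2577 and 757 CPM, and their part was not tested. No member was 1.5-fold lower in either class. With TMM factors, Aldoa, Pgk1, Eno1, Pkm and Ldha also passed 1.5-fold higher in the suprabasal-like class, so that 6 members passed in place of 1, where 13.3% of all genes were then higher and 12.9% lower. Unscaled, 3.9% of all genes in IFE basal-like cells were higher and 10.4% lower, and in IFE suprabasal-like cells 5.04% and 26.5%.

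In upper hair follicle-like cells, 4 of the 10 genes were at least 1.5-fold higher and none lower, beside 5.09% and 12% of all genes. Slc16a1 went from 18.9 to 39.7 CPM (2.10, 1.58 to 2.84), Hk2 from 21.9 to 36.1 CPM (1.65, 1.26 to 2.19), Pgk1 from 67.0 to 104 CPM (1.56, 1.33 to 1.82) and Aldoa from 235 to 353 CPM (1.5, 1.38 to 1.63). IFE suprabasal markers summed in this class to 10570 and 18590 CPM, companion layer and medulla markers to 78.1 and 896 CPM and cycling genes to 713 and 332 CPM, and their part was not tested. In outer bulge-like cells, where follicle stem cells reside, Slc2a1 went from 46.5 to 25.8 CPM (0.56, 0.42 to 0.74) and Eno1 from 64.3 to 98.3 CPM (1.53, 1.23 to 1.91), while Ldha went from 116 to 139 CPM (1.20, 1.02 to 1.42). The share of ribosomal protein UMIs there was 10.9% in control and 14% in TP, and dermal sheath markers summed to 542 and 1271 CPM. Inner root sheath markers summed to 2779 and 547 CPM and dissociation stress genes to 3337 and 6173 CPM in the outer bulge-like class. The part of these lists was not tested. With cells under 10% ribosomal protein UMIs left out, an alternative added after seeing the data, Slc2a1 had a ratio of 0.85 (0.53 to 1.44) in the outer bulge-like class.

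Among hair-forming classes, Aldoa went from 70.3 to 126 CPM in inner root sheath-like cells (1.79, 1.65 to 1.94). Cluster 23 of that class held 357 of 7463 control cells and 211 of 1106 TP cells, and its leading genes, among them S100a3, Acsm3 and Slc27a6, also lead a hair cortex and cuticle-like cluster. The ratio of Aldoa was 2.03 (1.71 to 2.41) in cluster 23 and 1.44 in each of the other clusters of the class, 1 (1.25 to 1.66) and 2 (1.23 to 1.69). Hk1 went from 12.9 to 26.0 CPM in hair cortex and cuticle-like cells (2.01, 1.31 to 3.07). In companion layer and medulla-like cells, Pfkp went from 12.3 to 24.2 CPM (1.96, 1.31 to 2.98), Hk1 from 12.6 to 20.3 CPM (1.61) and Slc2a1 from 13.8 to 21.9 CPM (1.59, 1.06 to 2.39), on 42 to 62 UMIs per library and gene. IFE suprabasal markers, which these classes should lack, were also higher in them in TP. Their sum went from 2683 to 9183 CPM in inner root sheath-like, from 3333 to 9163 CPM in hair cortex and cuticle-like and from 1894 to 8303 CPM in companion layer and medulla-like cells. The part of such epidermal RNA in the hair-class ratios was not tested. In hair matrix-like cells, none of 9 members with enough UMIs passed 1.5-fold, where 6.12% of all genes were higher and 11.1% lower, and Hk2 stood at 74.4 and 70.0 CPM.

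Melanocyte-like cells held the 3 lowest ratios of the 118 pairs, for Slc2a1, Hk2 and Pfkp, while Hk1 and Ldha had ratios above 1 in the same cells. The class held 456 control and 196 TP cells, and its markers were present in both libraries, with Dct at 11395 and 12898 CPM and Tyrp1 at 2951 and 3103 CPM. Hk2 went from 460 CPM (424 to 499) to 126 CPM (107 to 148), a ratio of 0.27 (0.23 to 0.33). Pfkp went from 142 to 42.8 CPM (0.30, 0.22 to 0.41), and Slc2a1 from 47.2 to 10.7 CPM (0.23, 0.11 to 0.42), on 60 and 13 UMIs. In the same cells Ldha went from 358 to 552 CPM (1.54, 1.37 to 1.74), Pgk1 from 236 to 315 CPM (1.34), Aldoa from 383 to 497 CPM (1.3) and Slc16a1 from 22.0 to 36.2 CPM (1.64, 1.00 to 2.74). The remaining members, Hk1, Eno1 and Pkm, had ratios of 1.142, 1.185 and 1.076. Thus 3 members were at least 1.5-fold lower and 2 higher, where 23.1% of genes in this class were lower and 15.7% higher.

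Other values moved in the melanocyte-like class too. The ribosomal protein share was 8.83% in control and 12.4% in TP, Malat1 took 1.76% and 1.26%, and Tyr, the rate-limiting enzyme of melanin synthesis, went from 2888 to 1918 CPM while Pmel went from 3690 to 6104 CPM. The sum of inner root sheath markers went from 3314 to 379 CPM and that of dissociation stress genes from 1806 to 3604 CPM, and their part was not tested. With cells under 10% ribosomal protein UMIs left out, Hk2 had a ratio of 0.43 (0.33 to 0.56), Pfkp 0.43 (0.26 to 0.69) and Slc2a1 0.20 (0.08 to 0.45), while Ldha had 1.10 (0.95 to 1.27). With cycling cells left out, the ratios of Hk2, Pfkp and Slc2a1 were 0.22, 0.20 and 0.15, and that of Ldha was 2.08. In cells thinned to 1000 UMIs, Hk2 had a ratio of 0.17 (0.10 to 0.29), Pfkp 0.53 (0.26 to 1.00) and Ldha 1.54, and Slc2a1 rested on 17 UMIs against 1. The ratios of Hk2, Pfkp and Slc2a1 were below 1 under each of these, and the higher Ldha level was not present once cells of low ribosomal protein share were left out.

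Dermal papilla-like cells, the signalling centre at the base of the follicle, numbered 3931 in control and 1606 in TP. Ldha went from 162 CPM (155 to 169) to 286 CPM (275 to 297), a ratio of 1.77 (1.67 to 1.88), Pgk1 from 54.9 to 97.2 CPM (1.77, 1.60 to 1.96), Eno1 from 48.6 to 73.3 CPM (1.51, 1.35 to 1.69) and Slc16a1 from 3.24 to 7.18 CPM (2.22, 1.46 to 3.41). Hk2 went the other way, from 63.7 CPM (59.2 to 68.5) to 27.7 CPM (24.5 to 31.4), a ratio of 0.44 (0.38 to 0.50). Thus 4 members were at least 1.5-fold higher and 1 lower, beside 9.03% and 16.4% of all genes in this class.

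The papilla-like class joins 3 clusters with unequal shares of each library. Cluster 13, led by Ndnf, held 2282 control and 283 TP cells, cluster 11, led by the agouti gene and Vcan, 1618 and 1024, and cluster 26, led by Dkk2, 31 and 299. Within cluster 11, the ratio was 0.45 (0.37 to 0.55) for Hk2, 1.81 (1.68 to 1.95) for Ldha and 1.64 (1.42 to 1.89) for Pgk1. Within cluster 13, Ldha was at 1.51 (1.31 to 1.74), but Hk2 was at 0.85 (0.66 to 1.08) and Pgk1 at 0.97 (0.74 to 1.26). The TP cells of cluster 26 held 240 CPM of Pgk1 (225 UMIs), against 85.3 CPM in those of cluster 11. Cycling genes summed to 472 CPM in control and 97.2 CPM in TP papilla-like cells, inner root sheath markers to 2271 and 442 CPM, and dissociation stress genes to 2509 and 11940 CPM. Without cycling cells, Hk2 had a ratio of 0.41, Ldha 1.64 and Pgk1 1.74 in the class. The part of the other lists was not tested.

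**Figure D4:**
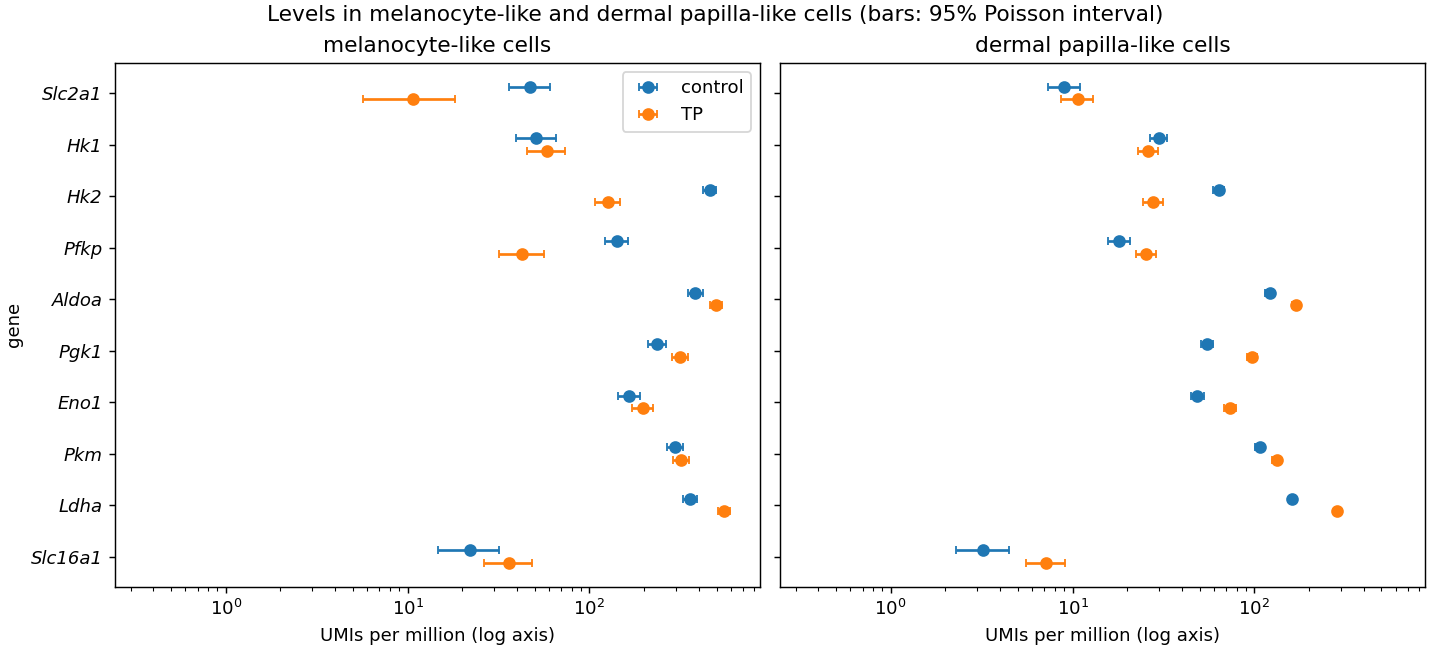
Levels of the 10 genes in melanocyte-like and dermal papilla-like cells (CPM, log axis) in control and TP, with 95% Poisson intervals for counting error. In both classes Hk2 lies lower in TP, at ratios of 0.27 and 0.44, and Ldha higher, at 1.54 and 1.77.

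In dermal fibroblast-like cells, Hk2 went from 22.4 CPM on 10 UMIs to 52.6 CPM on 261 UMIs (2.34, 1.25 to 4.94), Pfkp from 35.9 to 71.5 CPM (1.99, 1.21 to 3.52) and Ldha from 74.1 to 119 CPM (1.61, 1.13 to 2.36). The control side rests on 186 cells, and after thinning to 1000 UMIs per cell Hk2 had 1 control and 28 TP UMIs. That class also carried Schwann cell markers, at 458 CPM in control and 289 CPM in TP. Inner root sheath markers summed there to 2345 and 379 CPM, cycling genes to 496 and 169 CPM and dissociation stress genes to 3479 and 7816 CPM. The part of these lists was not tested. In dermal sheath-like cells, Pfkp went from 33.4 to 56.6 CPM (1.69, 1.07 to 2.70) and Eno1 from 66.8 to 106 CPM (1.58, 1.14 to 2.20). Dermal fibroblast markers summed there to 4936 CPM in control and 16130 CPM in TP and dermal papilla markers to 6434 and 2524 CPM, and their part in these ratios was not tested.

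The share of a step taken by each of its genes differed between classes. Shares of UMIs at the 3′ end are compared between classes and libraries only, since capture differs between transcripts. Hk2 made up 63.2% (62.2 to 64.2) of Hk1 and Hk2 UMIs over all control cells and 45.9% (45 to 46.8) over TP cells, without make-up held fixed. The share was 32.1% and 31.0% in IFE basal-like and 34.8% and 35.6% in IFE suprabasal-like cells, with overlapping intervals in each class. It was 85.7% and 83.3% in hair matrix-like cells. In melanocyte-like cells it was 90.0% (87.4 to 92.2) in control and 68.3% (61.8 to 74.3) in TP, and in dermal papilla-like cells 68.1% (65.2 to 70.9) and 51.6% (47.1 to 56.1). The share was also lower in TP, with intervals that did not overlap, in companion layer and medulla-like (82.8% and 68.5%), hair cortex and cuticle-like (83.8% and 69.6%) and inner root sheath-like cells (69.6% and 61.5%). Within the papilla-like class, intervals overlapped in cluster 13 (73.33% and 68.33%) and did not in cluster 11 (61.75% and 46.29%), and cluster 26 held 3 control UMIs. Within the hair cortex and cuticle-like class, they overlapped in cluster 22 (88.37% and 80%) and did not in cluster 18 (77.94% and 55.56%). Within the inner root sheath-like class, intervals overlapped in cluster 1 (69.0% and 66.7%) and cluster 2 (70.7% and 67.3%). Cluster 23, with 357 of 7463 control and 211 of 1106 TP cells of the class, went from 67.9% (59.3 to 75.7) to 51.4% (43.8 to 59.0). It was higher in TP in dermal fibroblast-like (40% and 64.3%) and upper hair follicle-like cells (29.5% and 38.7%), with overlapping intervals.

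**Figure D5:**
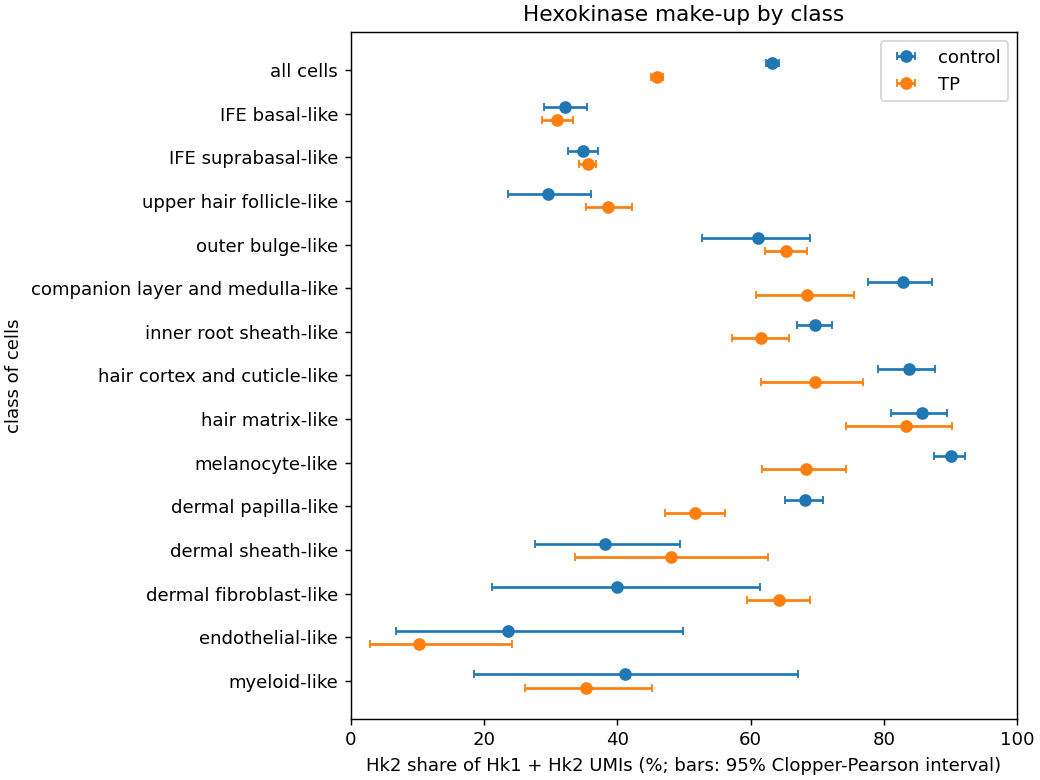
Share of Hk2 in Hk1 plus Hk2 UMIs (percent, with 95% Clopper-Pearson intervals) over all cells and in 14 classes, control in blue and TP in orange. The epidermal classes lie between 31.0% and 35.6% in both libraries, and melanocyte, dermal papilla, companion layer and medulla, hair cortex and cuticle, and inner root sheath-like cells lie lower in TP with intervals that do not overlap. Within the inner root sheath-like class, the intervals of clusters 1 and 2, not drawn here, overlap between libraries, and those of cluster 23 do not. Those of papilla-like cluster 13 and hair cortex and cuticle-like cluster 22 also overlap, and those of clusters 11 and 18 of these classes do not.

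Ldhb, the heart-type lactate dehydrogenase, made up 39.0% (34.7 to 43.5) of Ldha and Ldhb UMIs in hair matrix-like cells of the control and 43.3% (36.5 to 50.2) in TP, against 3.40% and 2.99% in IFE basal-like cells. Pfkp made up 87.2% and 87.1% of phosphofructokinase UMIs (Pfkp, Pfkl and Pfkm) in IFE basal-like cells, and 77.2% (71.3 to 82.5) and 54.2% (43.7 to 64.4) in melanocyte-like cells. Its share was higher in TP in companion layer and medulla-like cells, at 35.6% (27 to 44.9) in control and 54.9% (45.2 to 64.3) in TP, and lower in IFE suprabasal-like cells, at 83.5% and 78.2%. Slc16a3 (MCT4, a lactate exporter of glycolytic cells) made up 60.6% and 52.8% of Slc16a1 and Slc16a3 UMIs in IFE basal-like cells. In IFE suprabasal-like cells its share was 37.4% (30.8 to 44.4) in control and 14.6% (12.6 to 16.8) in TP.

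Of the 4 steps between the members that hold no member, 3 had ratios near 1.47 over all cells and the fourth a lower one. These all-cell ratios, and those of the lists below, were not recomputed with cluster make-up held fixed. Gapdh went from 235 to 346 CPM (1.47), Tpi1 from 98.6 to 145 CPM (1.47) and Pgam1 from 116 to 172 CPM (1.48), while Gpi1, which turns glucose phosphate into fructose phosphate, went from 74.6 to 90.5 CPM (1.21, 1.18 to 1.25). Of 27 other glycolysis enzymes, 20 had at least 50 UMIs, with 2 at least 1.5-fold higher (Aldoc, 1.76, and Eno1b, 1.65), 2 lower (Pfkfb1, 0.51, and Pfkm, 0.66), beside the 13.9% and 26% of all genes, and a median log2 ratio of 0.14, against 0.57 for the members. Of 13 sugar and lactate carriers with at least 50 UMIs, 3 were higher and 1 lower. Slc5a1, a sodium-coupled glucose carrier, went from 7.02 to 26.8 CPM (3.81, 3.52 to 4.13), Slc2a5, a fructose carrier, had a ratio of 1.83 and Slc16a3 1.53. Slc16a7 (MCT2) went from 102 to 44.6 CPM (0.44, 0.42 to 0.45).

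Among 14 genes of mitochondrial pyruvate use, 1 was higher (Pdk4, which restrains pyruvate dehydrogenase, 2.43) and 1 lower (Pdp2, 0.44), with a median of -0.11. None of 7 pentose phosphate genes passed either limit (median -0.13), and of 10 glycogen genes none was higher (median -0.43). Of 18 hypoxia-responsive genes, 2 were higher (Adm, 3.35, and P4ha2, 1.88) and none lower, with a median of 0.28. Of 8 regulators, Epas1 (HIF2α) was higher at 2.14 and Ppargc1a lower at 0.49. All of these medians stand beside -0.24 and the counts beside 13.9% higher and 26% lower for all genes, and none of the lists was tested. With TMM factors, tried on the lists after seeing the data, 20.2% of all genes were higher and 14.8% lower, and 7 of 20 other glycolysis enzymes, 6 of 13 carriers and 8 of 18 hypoxia-responsive genes were higher. Of the other lists, 1 of 14 genes of mitochondrial pyruvate use, 0 of 7 pentose phosphate genes, 1 of 10 glycogen genes and 2 of 8 regulators were then higher.

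Within classes, these lists stood apart from the members in places and near them in others, and none was tested. In dermal papilla-like cells, 6 of 14 other glycolysis enzymes were at least 1.5-fold higher and none lower, beside 9.03% and 16.4% of all genes, with a median log2 ratio of 0.49 beside 0.48 for the members and -0.10 for all genes. Gapdh went there from 184 to 287 CPM (1.55, 1.47 to 1.65) and Tpi1 from 90.1 to 142 CPM (1.57, 1.45 to 1.71). In melanocyte-like cells, Gapdh went from 480 to 838 CPM (1.75, 1.58 to 1.93), Bsg (basigin, which carries MCT1 to the membrane) from 202 to 340 CPM (1.68) and Mpc1, a mitochondrial pyruvate carrier subunit, from 81.0 to 141 CPM (1.74). Of 5 pentose phosphate genes in the same class 4 were higher and 1 lower, and of 11 hypoxia-responsive genes none was higher and 6 lower, beside 15.7% higher and 23.1% lower of all genes and with a median of -0.89 beside -0.13 for all genes. In IFE suprabasal-like cells, 7 of 9 glycogen genes were lower and none higher, beside 26.5% and 5.04% of all genes, with a median of -0.81 beside -0.28. With TMM factors 4 of these 9 were lower, beside 12.9% of all genes, with a median of -0.47 beside 0.06. Pdk1, a kinase that turns off pyruvate dehydrogenase, went from 41.3 to 29 CPM over all cells (0.70, 0.67 to 0.73) and from 50 to 30.5 CPM in IFE suprabasal-like cells (0.61, 0.56 to 0.66).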

How the data were processed

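The authors pooled skin of 15 mice per group and made 1 droplet library from each. The deposited values are UMI counts per gene and barcode, made by the authors with Cell Ranger 8.0.1 on mm10 per the submitters' processing notes, and were not normalized. Barcodes were kept at 200 to 8000 detected genes and no more than 10% mitochondrial UMIs, and 7.5% of these were removed in each library as doublets by a rewritten DoubletFinder procedure. More than 10% mitochondrial UMIs were found in 3465 of 45709 control barcodes and in 5871 of 25931 TP barcodes. Seurat 5.3.0 (R 4.3.3) gave reciprocal PCA integration on 2000 variable genes without the members, the pathway lists and mitochondrial genes, 30 components and Louvain clusters at resolution 1. A cluster was named where a marker score reached 1 and at least 3 markers were detected. In addition, own-class markers among its leading 10 genes were not to be outnumbered by those of all other classes together. Clusters of low depth with no own-class marker among these genes stayed unnamed. These limits were set once clusters had been seen. Sums, intervals and calls were computed in Python 3.11.15 (numpy 2.4.6, scipy 1.17.1, pandas 2.3.3). TMM factors alone came from edgeR 4.0.16. A gene was called at 1.5-fold where the 2 libraries held 50 or more of its UMIs, after 1 UMI was added per library. The interval and call functions were tested on simulated data. With 1 library per group no p-value was computed. Named are the members, fixed partner genes and, per list, up to 3 of the largest folds per direction. The members and lists were chosen with earlier results of these data known. Gene symbols were matched to RefSeq on GRCm38.p6, and all 10 members had upstream windows. The value of 1 gene that the naming rule picked is not reported here.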

Additional observations from a re-analysis of the deposited data

Results flagged for a closer look

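For 3 members, the level was at least 1.5-fold higher in TP in some classes and at least 1.5-fold lower in others, with counting intervals that left out 1 on both sides. Among all genes with at least 50 UMIs in 9 or more classes, 12.9% met the same condition. With 1 library per group, the difference between classes was not tested. Hk2 had a ratio of TP over control of 2.34 in dermal fibroblast-like and 1.65 in upper hair follicle-like cells, against 0.44 in dermal papilla-like and 0.27 in melanocyte-like cells. Pfkp had ratios of 1.96 in companion layer and medulla-like, 1.99 in dermal fibroblast-like and 1.69 in dermal sheath-like cells, against 0.30 in melanocyte-like cells. Slc2a1 had a ratio of 1.59 in companion layer and medulla-like cells, against 0.23 in melanocyte-like and 0.56 in outer bulge-like cells.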

How the results depend on the processing

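No paired analysis was possible because each group is 1 library. The median log2 ratio of the members (0.57) was 0.82 with TMM factors, 0.66 with totals without the 100 most abundant and mitochondrial genes, 0.64 with cells thinned to 1000 UMIs, 0.48 at no more than 5% mitochondrial UMIs, 0.47 without cells under 10% ribosomal protein UMIs, 0.17 and 0.21 with control and TP shares of clusters, and 1.00 on means of ln(counts per 10000 + 1). The count of members at least 1.5-fold higher (4) was 9 with TMM factors and with means of ln values, 8 with the trimmed totals, 2 at no more than 5% mitochondrial UMIs and without cells of low ribosomal protein share, and 1 under both cluster weightings, and no member was 1.5-fold lower under any of these. Of all genes, 2782 were higher and 3775 lower with the trimmed totals, and 2086 and 4375 at no more than 5% mitochondrial UMIs. Without cells of low ribosomal protein share they were 1641 and 3348, and with TMM factors 3544 were higher. All genes were not counted for the means of ln values or the cluster weightings. Of 120 ratios of single members under alternatives, 45 stayed within the counting interval, and 75 moved beyond it, 4 of them to the other side of 1. These were Pfkp, from 1.57 to 0.93, and Hk1, from 1.48 to 0.97, with TP shares, and Slc2a1, from 1.37 to 0.91 with control and 0.83 with TP shares. Of all genes, those lower (4568) were 2593 with TMM factors and 2878 after thinning, and without the minimum of 50 UMIs 4754 were higher (against 2442) and 8337 lower. TMM factors moved the higher share of all calls from 34.8% to 57.8%, and the thinned cells gave 44.7%. The 23 pairs higher and 6 lower were 36 higher with TMM factors, 15 and 3 without cells of low ribosomal protein share (99 pairs), and 39 and 12 with every cluster by itself (243 pairs). Shares over all pairs of gene and class were counted only for the main setting and with TMM factors. Leaving out cells of low ribosomal protein share or cluster 0 was chosen after seeing the data. The cause of these shifts was not tested. Keeping doublets was not run for pairs, since those barcodes were not clustered. Depth limits Slc16a1 and all members in endothelial-like and myeloid-like cells.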
